A study of Caenorhabditis elegans with 36 samples.

Results

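The comparison described here is that of mbl-1(tm1563) mutants with N2, the Bristol wild type of Caenorhabditis elegans, as 2-day-old adults. It was chosen by genotype and age alone: 3 libraries of mbl-1 against 3 of N2, 6 of the 36 libraries of the study. The tm1563 allele is a deletion in mbl-1, and the mutant libraries carry no other allele or transgene in the labels. All of these animals had been synchronised with hypochlorite and raised on HT115 bacteria holding an empty RNAi vector, and total RNA of whole animals was sequenced. The study also holds N2 and mbl-1 libraries labelled L4 and strains that express CUG repeats, and of these only the libraries labelled L4 are used below, as a second comparison of the same genotypes. The labels do not say whether the 3 libraries of a group came from separate cultures, so each p-value below speaks of the variation among these particular libraries, part or all of which may be technical.

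MBL-1 is the worm member of the muscleblind family, zinc finger proteins that bind RNA and regulate alternative splicing, and that in human myotonic dystrophy are sequestered by expanded CUG repeats. In C. elegans it acts in muscle and in neurons, among them the touch receptor neurons, where it regulates the transcripts of genes needed for microtubules, synapses and touch sensation. Carnitine palmitoyltransferase, which the study names beside MBL-1, is the enzyme system that passes long-chain fatty acids into mitochondria for beta-oxidation. The counts used here are per gene and do not measure splicing.

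Depth was 34276256 to 40427013 reads per N2 library and 45341308 to 47903768 reads for mbl-1 replicates 1 and 2, with 39475597 reads for mbl-1 replicate 3. The 6 libraries did not fall into their groups on the main axis of variation. Principal component 1 held 69.0% of the variance and placed N2 at -67.2, -45.02 and 31.9 and mbl-1 at 73.3, 35.3 and -28.3, in the order of replicates 1 to 3, which is kept in every list of values below. The third library of each group thus stood on the side of the other genotype. Principal component 2, with 12.9% of the variance, separated the genotypes, with N2 at 6.96, 15.8 and 31.4 and mbl-1 at -6.05, -11.7 and -36.5. Oocyte markers followed component 1: the summed level of 7 of 7 markers was 3415, 2745 and 1348 CPM (counts per 1000000 reads on a common TMM scale) in N2 and 1024, 1787 and 3416 CPM in mbl-1. The sum of 8 of 8 body wall muscle markers went the other way, at 1067, 1381 and 3132 CPM in N2 and 4832, 4052 and 2511 CPM in mbl-1, and so did the 7 intestinal markers, at 1179.8, 1496 and 2418 CPM and 3377, 2921 and 1669 CPM. The 5 hypodermal markers overlapped between the groups, at 662, 815 and 955 CPM in N2 and 684, 1009.7 and 859 CPM in mbl-1, with rol-6 at 0 in at least 1 library. Sperm markers were near 0 in all 6 libraries, with summed levels of 0.818, 1.05 and 1.64 CPM in N2 and 3.13, 1.48 and 1.44 CPM in mbl-1. In RNA of whole animals, fewer cells of a type and less RNA per cell cannot be told apart.

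Whether the third libraries carried the label of their own genotype was read from genes that were all but absent from 1 genotype in the libraries labelled L4. The 3 genes absent there from N2 (F59B2.12, spp-21 and Y45F10C.1; at most 3 reads in each N2 library and at least 30 in each mbl-1 library) summed to 0.136, 0.196 and 0.724 CPM in the N2 2-day adults and to 9.19, 4.002 and 2.29 CPM in the mbl-1 2-day adults. C07G1.7, the 1 gene absent there from mbl-1, was at 1.58, 1.17 and 0.567 CPM in N2 and 0.0237, 0 and 0.0747 CPM in mbl-1. These sums put the third libraries on the side of their own genotype. They lay nearer to each other than the other libraries were. N2 replicate 3 had more than 3 reads in all 3 of the genes absent from N2, against 1 gene in each other N2 library and 2 in mbl-1 replicate 3. In 2 of the 3 genes the groups did not overlap. With looser limits of 5 and 20 reads, 17 genes summed to 0.982, 1.37 and 3.18 CPM in N2 and to 22.6, 12.8 and 5.30 CPM in mbl-1. N2 replicate 3 then had more than 5 reads in 7 of them and mbl-1 replicate 3 in 9, against 16 in each other mutant library. The groups did not overlap in 6 of the 17.

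The targeted gene, mbl-1 (K02H8.1; X, 17001728 to 17008361, build WBcel235), stood at 13.9, 16.13 and 31.8 CPM in N2 and 13.1, 13.6 and 9.91 CPM in the mutant. The mutant libraries were all below the N2 libraries, N2 replicate 3 being the highest, and the log2 difference of -0.75 ± 0.359 (SE, n = 3 and 3) had an edgeR adjusted p of 0.910. Because the deleted stretch is not counted separately, this level is no check of the genotype.

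Across the genome the spread within the groups was wide beside the difference between them. Of 13286 genes tested, edgeR's quasi-likelihood F test called 0% at an adjusted p under 0.05, and 695 genes had an unadjusted p under 0.05. DESeq2, run on the same counts, called 57 genes higher in mbl-1 (0.429%) and 75 lower (0.565%), and the authors' deposited table has 46 higher and 62 lower at the same threshold. In all 132 genes that DESeq2 called, the 3 mbl-1 libraries lay on 1 side of the 3 N2 libraries. Without such a model, all 3 mbl-1 libraries lay above all 3 N2 libraries in 618 genes (4.65%) and below them in 568 (4.28%). These genes are described as not overlapping, and for each the values of the 6 libraries are the evidence. Unless another fit is named, log2 differences and SE below are those of edgeR with all 6 libraries. This also holds where a DESeq2 adjusted p stands beside them. The smallest edgeR adjusted p of that fit was 0.185, so edgeR called none of the genes given with a DESeq2 p. DESeq2's calls depended on the libraries: leaving out N2 replicate 3 gave 1008 higher and 172 lower, leaving out mbl-1 replicate 3 gave 192 and 88, and leaving out any other library gave 10 to 17 higher and 22 to 47 lower. Of the 132 genes, 29 were called in the same direction in all 6 of these fits, 8 higher and 21 lower in mbl-1. Among these 29 were skr-12, pud-3, catp-3, nid-1, mec-17, ctsa-4.1 and nep-8. Other genes named below were less stable. Called in 2 of the 6 fits were mup-2, unc-82, ttr-18, ttr-32, flp-21, ins-7, sod-3, del-6, nspc-5, nspg-1, pfn-3 and cyp-13A7. So were, among others, acox-1.2, gst-10, clec-70, clec-11, lys-10, pals-37, asp-17, col-73, sams-1, kynu-1 and gon-1. mec-12, ugt-46, ugt-48, dod-21 and dgat-2 were called in 1.

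The smallest p of both tools was that of skr-12, whose family of Skp1 relatives provides the adaptor of SCF ubiquitin ligases (C52D10.6; IV, 17167258 to 17168051). It was read at 10.1, 10.99 and 16.16 CPM in N2 and 1.18, 0.922 and 1.12 CPM in mbl-1, lower by 11.4-fold (log2 -3.51 ± 0.309 SE, DESeq2 adjusted p = 4.61e-27, edgeR adjusted p = 0.185). All 3 mutant libraries lay near 1 CPM, the third among them. The neighbouring genes pud-3 (F15E11.15; V, 2324510 to 2325152) and pud-4 (F15E11.12; V, 2326679 to 2327262), named for proteins that are more abundant in daf-2 mutants, were lower together. pud-3 was at 115.3, 124 and 198 CPM in N2 and 14.3, 24.4 and 12.5 CPM in mbl-1 (log2 -3.09 ± 0.344 SE, DESeq2 adjusted p = 1.48e-14, edgeR adjusted p = 0.287). pud-4 was at 19.4, 20.1 and 40.1 CPM in N2 and 6.49, 6.79 and 3.56 CPM in mbl-1 (log2 -2.24 ± 0.410 SE, DESeq2 adjusted p = 2.19e-05). In both genes N2 replicate 3 was the highest library and mbl-1 replicate 3 the lowest, so the third libraries widened the difference. Near-identical members of the pud family can share reads.

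catp-3 (C09H5.2; V, 8076085 to 8079849), of the P-type ATPase family of cation pumps, was nearly constant in N2 at 46.3, 46.6 and 46.96 CPM and reached 15.7, 10.7 and 5.92 CPM in mbl-1 (log2 -2.1004 ± 0.349 SE, DESeq2 adjusted p = 6.63e-06). swt-3 (C06G8.1; IV, 10778986 to 10780711), of the SWEET family of sugar transporters, was at 13.1, 14.2 and 10.6 CPM in N2 and 1.42, 2.09 and 4.46 CPM in mbl-1 (log2 -2.24 ± 0.451 SE, DESeq2 adjusted p = 3.17e-04; log2 -2.85 without mbl-1 replicate 3). nid-1 (F54F3.1; V, 12910113 to 12917221) encodes nidogen, a protein of basement membranes, and stood at 101, 113 and 93.05 CPM in N2 and 26.4, 42.96 and 40.1 CPM in mbl-1, a log2 difference of -1.48 ± 0.197 (SE, DESeq2 adjusted p = 2.73e-06). In these 3 genes the lowest N2 library was more than 2-fold above the highest mutant library. epic-1 (F11E6.3) at 138, 148 and 159 against 64.5, 91.4 and 78.0 CPM and the degenerin-like channel gene del-6 (T21C9.3) at 32.7, 36.9 and 33.8 against 19.8, 23.7 and 20.3 CPM differed by less, with log2 differences of -0.92 ± 0.157 and -0.69 ± 0.138 (SE; DESeq2 adjusted p = 4.95e-04 and 0.00158). del-6 shares exon sequence with vps-54 on the other strand, and without strand in the counting their reads cannot be told apart. The same limit holds for other genes below that overlap antisense genes, among them ugt-25, ugt-48, cyp-13A6, col-158, unc-82, sod-3, dgat-2 and amt-1.

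**Figure D1:**
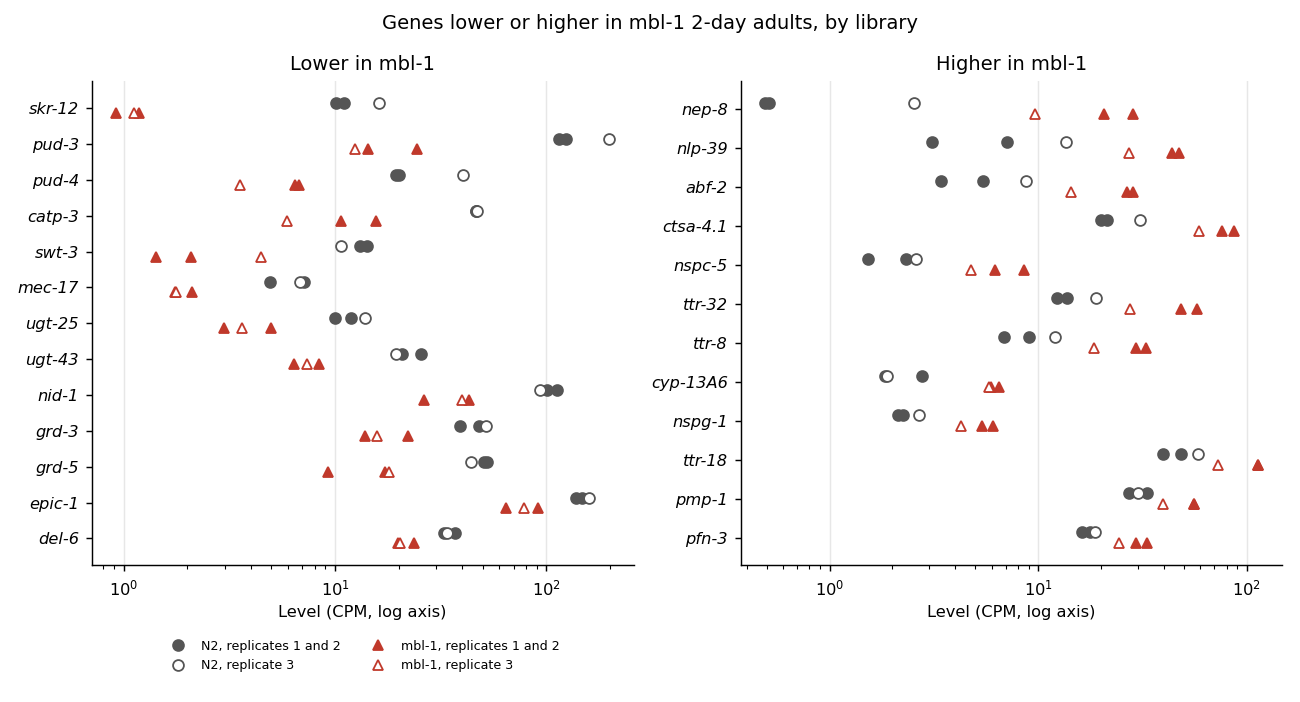
Level of each gene (CPM, log axis) in the 3 N2 libraries (circles) and the 3 mbl-1 libraries (triangles) of 2-day adults, with the third library of each group drawn open. In no gene shown do the groups overlap: skr-12 is at or above 10.09 CPM in every N2 library and at or below 1.18 CPM in every mbl-1 library, and in nep-8 the open symbols lie closest to the other genotype.

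Among the genes that were higher in the mutant, nep-8 (F18A12.4; II, 3403919 to 3406788), of the neprilysin family of membrane metallopeptidases, was 16.7-fold higher. It was read at 0.491, 0.514 and 2.55 CPM in N2 and 28.5, 20.7 and 9.66 CPM in mbl-1 (log2 4.07 ± 0.818 SE, DESeq2 adjusted p = 6.53e-06; log2 5.28 without N2 replicate 3). The third N2 library was the highest of its group and the third mutant library the lowest of its group, and they still differed. ctsa-4.1 (K10B2.2; II, 6366991 to 6369210), a cathepsin A-like serine carboxypeptidase gene, was at 20.05, 21.4 and 30.7 CPM in N2 and 75.9, 87.1 and 58.7 CPM in mbl-1, a log2 difference of 1.63 ± 0.232 (SE, DESeq2 adjusted p = 1.67e-06). Its exons overlap those of clec-88 on the same strand, so reads may be split between them. abf-2 (C50F2.10; I, 3885548 to 3885961), an antibacterial peptide gene, was at 3.41, 5.41 and 8.69 CPM in N2 and 28.4, 26.7 and 14.4 CPM in mbl-1 (log2 1.99 ± 0.435 SE, DESeq2 adjusted p = 0.00157).

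The transthyretin-related genes ttr-8, ttr-18 and ttr-32 were among the 12 higher genes named for the smallest edgeR p. Other members of this family were not counted. This family encodes small secreted proteins that are expanded in nematodes. ttr-8 (R13A5.6; III, 7564507 to 7565345) and ttr-32 (R13A5.3; III, 7566413 to 7567489) are neighbours, and stood at 6.82, 9.01 and 12.095 against 32.9, 29.5 and 18.4 CPM and at 12.303, 13.7 and 18.96 against 58.0, 48.6 and 27.5 CPM in N2 and mbl-1, with DESeq2 adjusted p of 0.00163 and 0.00205. ttr-18 (B0334.1; II, 11485512 to 11486774), on another chromosome, was at 39.6, 48.6 and 58.4 CPM in N2 and 113, 113 and 72.7 CPM in mbl-1 (log2 1.03 ± 0.233 SE, DESeq2 adjusted p = 0.0234). In each of the 3 genes the third N2 library was the highest of N2 and the third mutant library the lowest of mbl-1. The nematode-specific peptide genes nspc-5 (C03G5.12; 1.53, 2.32 and 2.58 against 8.55, 6.23 and 4.75 CPM) and nspg-1 (T07F10.6; 2.13, 2.25 and 2.68 against 5.35, 6.07 and 4.26 CPM) and the profilin gene pfn-3 (K03E6.6; 16.18, 17.8 and 18.7 against 29.4, 33.2 and 24.3 CPM) had DESeq2 adjusted p of 0.00163, 0.00184 and 0.0221. ttr-8, ttr-32, nspg-1 and pfn-3 each overlap exons of an antisense gene, and their reads are uncertain for that reason. nspg-1 also overlaps T07F10.3 on the same strand.

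Among detoxification genes, more separated below N2 than above it in the 6 libraries. Of 159 cytochrome P450, UDP-glucuronosyltransferase (ugt), glutathione S-transferase and ABC transporter genes tested, 15 were lower in all 3 mutant libraries than in any N2 library and 4 higher (background 4.28% and 4.65%). DESeq2 called 9 lower and 2 higher (background 0.565% and 0.429%). The median log2 difference of the list was 0.03, against 0.01 over all genes tested. With the oocyte list as covariate and all 6 libraries edgeR called 3 higher and 6 lower (median -0.13). Over all 13286 genes that fit called 137 higher and 98 lower. The direction turned in other fits. Without the third library of each group edgeR called 55 of 157 higher and 18 lower (median 0.48; background 21.7% and 10.7%). In the libraries labelled L4 it called 74 of 153 higher and 14 lower (median 0.45; background 29.7% and 22.1%). ugt-43 (F01D4.1; IV, 10464659 to 10467240) was at 20.8, 25.5 and 19.5 CPM in N2 and 6.37, 8.39 and 7.39 CPM in mbl-1 (log2 -1.56 ± 0.202 SE, DESeq2 adjusted p = 3.94e-10), and ugt-25 (C10H11.3; I, 4731604 to 4735279) at 9.96, 11.97 and 13.9 and 2.98, 4.99 and 3.61 CPM (log2 -1.62 ± 0.276 SE, DESeq2 adjusted p = 4.95e-06). These enzymes attach sugars to lipophilic compounds and so make them soluble. ugt-63 (C04F5.7; V, 5108015 to 5110789) ranged widely, at 33.3, 38.98 and 8.82 CPM in N2 and 0.640, 1.57 and 5.05 CPM in mbl-1, with the third libraries between the others (log2 -3.46 ± 0.893 SE, DESeq2 adjusted p = 0.00227; log2 -4.60 without mbl-1 replicate 3). ugt-46, ugt-48, ugt-53, gst-10, cyp-25A1 and cyp-29A4 were the other 6 that DESeq2 called lower, at log2 differences of -0.68 (ugt-48) to -2.89 (cyp-29A4). cyp-29A4 (B0331.1) was at 5.48, 5.04 and 4.13 CPM in N2 and 0.592, 0.809 and 0.548 CPM in mbl-1 (DESeq2 adjusted p = 1.53e-17). The neighbouring P450 genes cyp-13A6 (T10B9.3; II, 9800761 to 9802721) and cyp-13A7 (T10B9.10; II, 9803620 to 9805510) were the 2 that DESeq2 called higher. cyp-13A6 was at 2.78, 1.84 and 1.89 CPM in N2 and 5.95, 6.50 and 5.80 CPM in mbl-1, with narrow groups. cyp-13A7 was at 2.18, 2.3002 and 12.19 CPM in N2 and 107, 25.4 and 12.9 CPM in mbl-1, and there the third libraries were nearly equal (DESeq2 adjusted p = 1.65e-05 and 0.0429). The paralogues of cyp-13A lie side by side and can share reads.

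Of 85 cuticle collagen genes, which build the exoskeleton, 12 were lower in mbl-1 without overlap and 0 higher (background 4.28% and 4.65%). DESeq2 called col-73, col-158 and col-135 lower (background 0.565%). The median log2 difference of the list was -0.16. Without the third library of each group edgeR called 12 of 85 higher and 14 lower (median -0.21; background 21.7% and 10.7%). With the oocyte list as covariate and all 6 libraries it called 0 higher and 5 lower (median -0.30). Over all 13286 genes that fit called 137 higher and 98 lower. The libraries labelled L4 went the other way, with 46 of 80 called higher and 7 lower (median 0.81; background 29.7% and 22.1%). col-158 (D2023.7; V, 11829582 to 11831222) was at 9.85, 10.03 and 7.43 CPM in N2 and 1.23, 1.75 and 3.41 CPM in mbl-1 (log2 -2.08 ± 0.418 SE, DESeq2 adjusted p = 3.68e-04). The abundant col-160 was at 463, 546 and 418 CPM in N2 and 138, 268 and 288 CPM in mbl-1 (log2 -1.03 ± 0.287 SE, DESeq2 adjusted p = 0.108), a separation that the test did not call. col-73 was at 1.06, 0.783 and 0.472 CPM in N2 and 0.0947, 0.0225 and 0.124 CPM in mbl-1, and collagens are similar enough to share reads. Hedgehog-related genes encode secreted proteins made mainly by the epidermis. Of 23 tested, 6 were lower and 3 higher without overlap (background 4.28% and 4.65%), and DESeq2 called grd-3 and grd-5 lower (background 0.565%). grd-3 (W05E7.1; IV, 3439655 to 3440456) was at 39.1, 48.2 and 52.03 CPM in N2 and 13.9, 22.03 and 15.9 CPM in mbl-1 (log2 -1.42 ± 0.212 SE, DESeq2 adjusted p = 7.63e-06). grd-5 (F41E6.2; V, 8619032 to 8619869) was at 50.5, 52.6 and 43.9 and 9.24, 17.3 and 18.1 CPM (log2 -1.71 ± 0.265 SE, DESeq2 adjusted p = 2.05e-05), and in both genes the groups were well apart. The hypodermis list shares members with the collagen and hedgehog-related lists and is not a separate set. Of its 20 tested genes, 4 were lower without overlap and 0 higher, and DESeq2 called none of the 4. Among them noah-2, of the apical extracellular matrix, was at 1.83, 1.27 and 2.77 CPM in N2 and 0.853, 0.899 and 0.996 CPM in mbl-1.

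**Figure D2:**
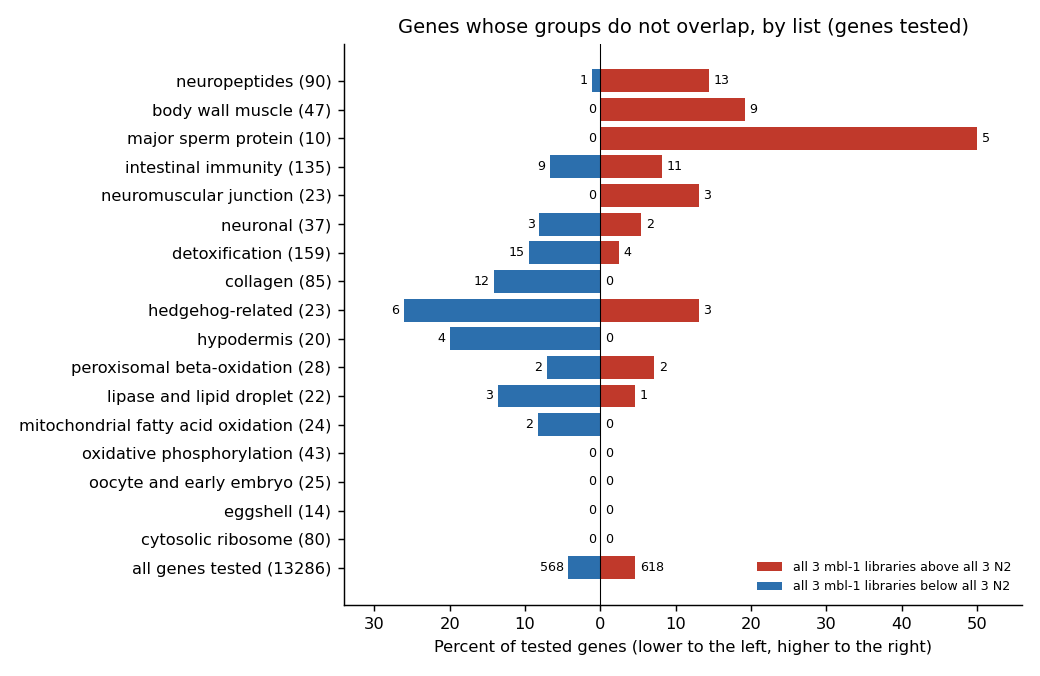
Percent of the tested genes of each list whose 3 mbl-1 libraries all lay above (right) or below (left) the 3 N2 libraries, with the number of genes at each bar and the number tested in brackets. Collagens stand at 12 lower and 0 higher of 85, body wall muscle at 9 higher and 0 lower of 47, and all genes tested at 618 higher and 568 lower of 13286. No test of a list was made.

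Genes for the microtubules of the touch receptor neurons lay lower in every mutant library than in any N2 library. mec-17 (F57H12.7; IV, 7983862 to 7987183) encodes the alpha-tubulin acetyltransferase of these cells and was at 4.94, 7.10 and 6.80 CPM in N2 and 2.11, 1.75 and 1.77 CPM in mbl-1 (log2 -1.73 ± 0.269 SE, DESeq2 adjusted p = 5.99e-08). mec-12 (C44B11.3; III, 3131574 to 3139221), an alpha-tubulin gene that the same microtubules use, was at 4.20, 4.18 and 6.74 CPM in N2 and 2.298, 2.25 and 2.04 CPM in mbl-1 (log2 -1.19 ± 0.296 SE, DESeq2 adjusted p = 0.00914). The beta-tubulin gene mec-7 (ZK154.3; X, 7774856 to 7776682) did not overlap either, at 1.83, 3.40 and 4.72 CPM in N2 and 1.397, 1.03 and 0.224 CPM in mbl-1, and was not called (log2 -1.89 ± 0.682 SE, DESeq2 adjusted p = 0.187). Other touch genes were looked at after these values were known. mec-3, the homeobox gene that specifies these neurons, was at 1.61, 2.28 and 2.68 CPM against 1.303, 1.48 and 0.498 CPM without overlap (DESeq2 adjusted p = 0.552). The groups overlapped in mec-2, mec-10 and mec-18, which were low: mec-2 was at 0.491, 0.881 and 1.57 against 1.16, 0.944 and 0.672 CPM, mec-10 at 0.300, 0.171 and 0.472 against 0.545, 0.427 and 0.224 CPM and mec-18 at 0.382, 0.881 and 0.661 against 0.687, 0.472 and 0.149 CPM. mec-17 overlaps arf-5, and mec-12 overlaps Y53G8B.1, on the opposite strand. mec-12 was called in only 1 of the 6 DESeq2 fits without 1 library. Over the whole neuronal list of 37 genes, 3 were lower (mec-12, mec-7 and unc-18) and 2 higher (sng-1 and unc-10) without overlap (background 4.28% and 4.65%). The median log2 difference was 0.30.

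Neuropeptide genes lay on the other side. Of 90 tested, 13 were higher in mbl-1 without overlap and 1 lower (background 4.65% and 4.28%). The median log2 difference was 0.92 against 0.01 over all genes. DESeq2 called nlp-39 and flp-21 higher (background 0.429%). nlp-39 (C54C8.9; I, 12461645 to 12462097), a neuropeptide-like gene, was at 3.11, 7.12 and 13.6 CPM in N2 and 47.1, 43.6 and 27.3 CPM in mbl-1 (log2 2.31 ± 0.546 SE, DESeq2 adjusted p = 0.00327; log2 2.94 without N2 replicate 3). flp-21 (C26F1.10; V, 7793365 to 7794021), which encodes an FMRFamide-like ligand of the receptor NPR-1, was at 0.355, 0.734 and 1.04 CPM in N2 and 3.77, 2.95 and 1.92 CPM in mbl-1 (log2 2.03 ± 0.484 SE, DESeq2 adjusted p = 0.00727). flp-2, flp-4, flp-9, flp-19, flp-32, nlp-25, nlp-41, nlp-48, nlp-101, pdf-1 and pdf-2 were the other 11, and nlp-26 was the 1 lower gene, at 11.2, 12.04 and 8.25 CPM in N2 and 6.30, 7.31 and 7.69 CPM in mbl-1. The list also moved with the main axis of variation: the median member deviated from the mean of the 6 libraries by -0.95, -0.52 and 0.23 log2 units in N2 and 1.03, 0.56 and -0.29 in mbl-1, so that the third library of N2 exceeded that of mbl-1. The oocyte list deviated by 0.55, 0.35 and -0.41 in N2 and -0.86, -0.17 and 0.54 in mbl-1, opposite in each library. In an edgeR fit that took the oocyte list as covariate, the median of the neuropeptide list was 0.51 and 6 genes were called higher and 0 lower. Over all 13286 genes that fit called 137 higher and 98 lower.

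**Figure D3:**
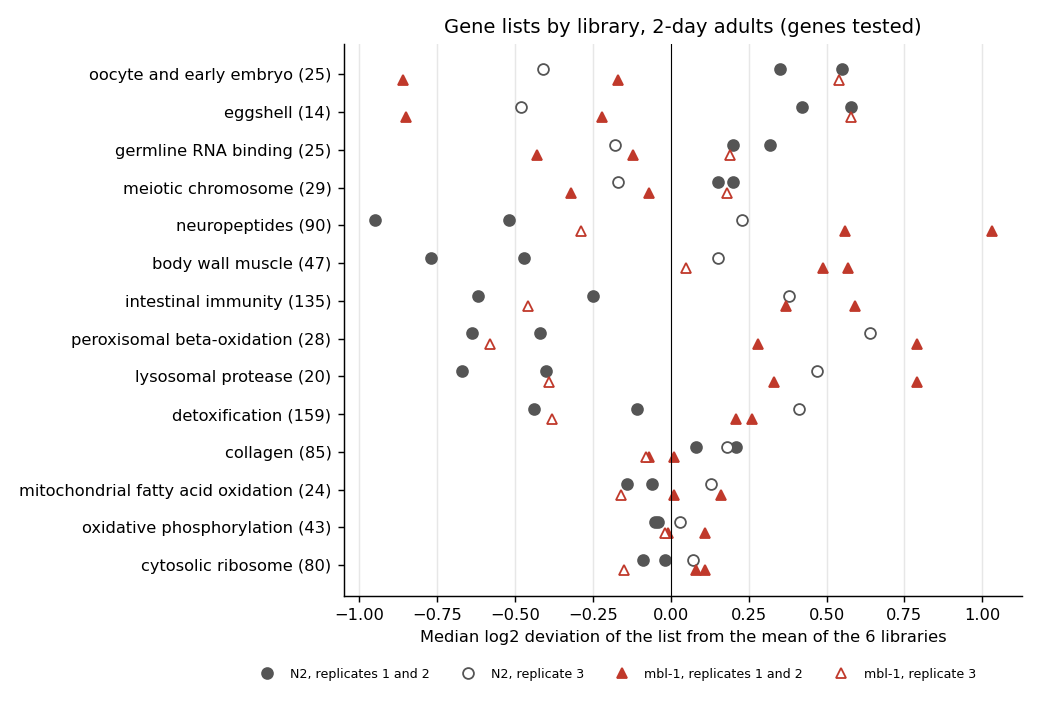
Median log2 deviation of each list from the mean of the 6 libraries, for N2 (circles) and mbl-1 (triangles), with the third library of each group drawn open and the number of tested genes in brackets. Oocyte, eggshell and germline lists lie high in N2 replicates 1 and 2 and in mbl-1 replicate 3, muscle, neuropeptide and intestinal lists lie low in the same 3 libraries except that the third mutant library is near 0 in muscle, and the ribosomal and oxidative phosphorylation lists stay within 0.15 of 0 in all 6.

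Of 47 body wall muscle genes tested, in whose cells MBL-1 acts, 9 were higher and 0 lower without overlap (background 4.65% and 4.28%). Their median log2 difference was 0.68. mup-2 (T22E5.5; X, 6408464 to 6410227), the troponin T of body wall muscle, was at 88.1, 99.0 and 153 CPM in N2 and 247, 233 and 193 CPM in mbl-1 (log2 0.99 ± 0.250 SE, DESeq2 adjusted p = 0.0450). unc-82 (B0496.3; IV, 7424496 to 7444662), a kinase gene needed for ordered thick filaments, was at 5.78, 7.07 and 8.85 CPM in N2 and 19.5, 15.4 and 11.1 CPM in mbl-1 (log2 1.09 ± 0.297 SE, DESeq2 adjusted p = 0.0450). DESeq2 called no other gene of the list (background 0.429% higher and 0.565% lower). mup-2 and unc-82 were each called in only 2 of the 6 DESeq2 fits without 1 library. The other 7 without overlap were the myosin light chain gene mlc-1, the troponin T gene tnt-2, dim-1, the integrin gene pat-2, the kindlin gene unc-112, sup-10 and the titin gene ttn-1. The myosin heavy chains overlapped: unc-54 (F11C3.3; I, 14855930 to 14863482) was at 191, 275 and 928 CPM in N2 and 1629.6, 1232 and 638 CPM in mbl-1 (log2 1.33 ± 0.662 SE, edgeR adjusted p = 0.910), and myo-3 (K12F2.1; V, 12226816 to 12234343) at 13.1, 17.01 and 37.6 and 56.04, 49.3 and 34.1 CPM (log2 1.05 ± 0.428 SE, edgeR adjusted p = 0.910). In unc-54 and myo-3 the first and second libraries of each group differed most and the third libraries were reversed. The list deviated by -0.77, -0.47 and 0.15 log2 units in N2 and 0.57, 0.49 and 0.05 in mbl-1, the third library of N2 being above that of mbl-1. In an edgeR fit that took the oocyte list as covariate, the median was 0.54 and 4 genes were called higher and 0 lower. Over all 13286 genes that fit called 137 higher and 98 lower. Of 23 genes of the neuromuscular junction, 3 were higher without overlap and 0 lower (background 4.65% and 4.28%), and DESeq2 called none. The 3 were the neurexin gene nrx-1, the acetylcholinesterase gene ace-3 and the acetylcholine receptor gene acr-8.

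Carnitine palmitoyltransferase genes were read in every library, and DESeq2 called none of the 6. cpt-1 (Y46G5A.17; II, 12787830 to 12796452) was at 200.3, 191 and 313 CPM in N2 and 414, 274 and 239.7 CPM in mbl-1 (log2 0.41 ± 0.300 SE, edgeR adjusted p = 0.910). cpt-2 (R07H5.2; IV, 11179643 to 11183000) was at 118.9, 113 and 135 and 134, 120.0 and 119.004 CPM (log2 0.03 ± 0.139 SE, edgeR adjusted p = 0.957). In both genes the groups overlapped. cpt-3 (Y48G9A.10; III, 2082819 to 2088272) ranged widely, at 0.327, 0.440 and 3.24 CPM in N2 and 20.2, 5.55 and 1.94 CPM in mbl-1 (log2 2.81 ± 1.19 SE, edgeR adjusted p = 0.910). In replicates 1 and 2 both mutant libraries were far above both N2 libraries, while the third N2 library was above the third mutant library. cpt-4 (K11D12.4; V, 5023738 to 5027725) was likewise higher in the mutant in replicates 1 and 2 and higher in N2 in replicate 3, at 0.218, 0.220 and 1.86 CPM in N2 and 5.57, 1.64 and 0.747 CPM in mbl-1. cpt-5 (F09F3.9; V, 13873172 to 13875878) overlapped at 16.6, 24.03 and 15.9 and 17.03, 7.85 and 14.6 CPM. cpt-6 (W01A11.5; V, 6490068 to 6493921) was the 1 member whose groups did not overlap, lower in mbl-1 at 6.57, 5.36 and 5.23 CPM in N2 and 3.32, 3.08 and 4.43 CPM in mbl-1 (log2 -0.65 ± 0.258 SE, edgeR adjusted p = 0.910, DESeq2 adjusted p = 0.311). In the libraries labelled L4, cpt-6 was lower as well, at 7.11, 6.87 and 7.20 CPM in N2 and 4.39, 4.15 and 4.33 CPM in mbl-1 (log2 -0.72, edgeR adjusted p = 0.00137). cpt-3 was higher, at 0.460, 0.492 and 0.273 and 3.35, 1.28 and 2.27 CPM (log2 2.47, edgeR adjusted p = 8.26e-05). cpt-4 was called higher there (log2 1.98, edgeR adjusted p = 0.00230) and cpt-2 was not called (log2 -0.12, edgeR adjusted p = 0.263). cpt-1 was called lower (log2 -0.28, edgeR adjusted p = 0.0398) and cpt-5 higher (log2 0.56, edgeR adjusted p = 0.00414), both opposite in sign to their differences in 2-day adults of 0.41 and -0.50, which were not called.

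**Figure D4:**
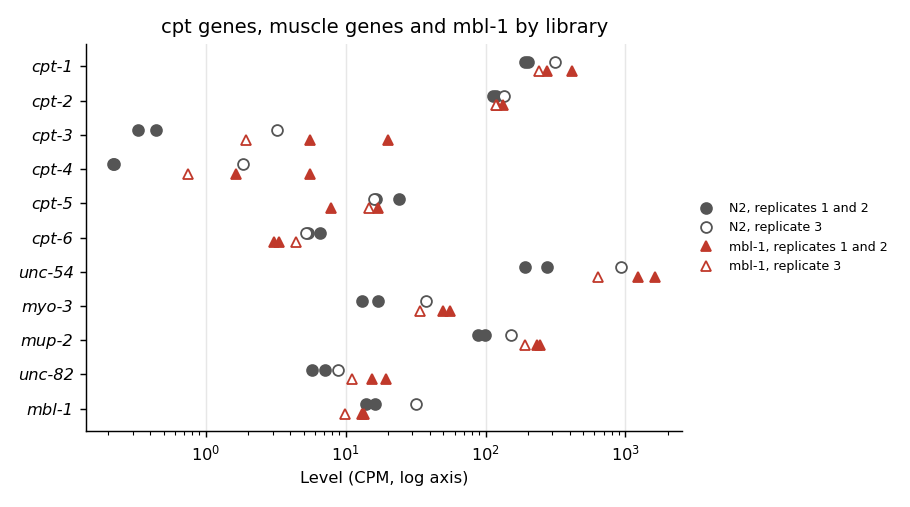
Level (CPM, log axis) of the 6 cpt genes, 4 muscle genes and mbl-1 in the N2 (circles) and mbl-1 (triangles) libraries of 2-day adults, the third of each group drawn open. cpt-6, mup-2, unc-82 and mbl-1 do not overlap between the groups, and in cpt-3, cpt-4, unc-54 and myo-3 the open circle lies above the open triangle.

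Each mitochondrial list gave at most 2 separated genes. Over all genes tested, 4.65% were higher and 4.28% lower without overlap. Of 24 genes of mitochondrial fatty acid oxidation, 2 were lower without overlap and 0 higher: acaa-2, a 3-ketoacyl-CoA thiolase gene, at 227, 228 and 254 CPM in N2 and 196, 203 and 207 CPM in mbl-1, and ech-5, of the enoyl-CoA hydratase family, at 55.4, 56.5 and 55.2 and 42.8, 52.5 and 47.8 CPM. DESeq2 called neither of them (adjusted p = 0.631 and 0.774). Of 43 nuclear genes of oxidative phosphorylation, 12 genes of the mitochondrial genome and 18 genes of mitochondrial dynamics none was without overlap, with median log2 differences of 0.03, -0.11 and -0.07. Of 18 genes of the mitochondrial unfolded protein response 1 was higher, the regulator atfs-1 itself, at 73.4, 73.3 and 79.3 CPM in N2 and 81.5, 93.2 and 84.0 CPM in mbl-1 (log2 0.20 ± 0.114 SE, 1.15-fold, DESeq2 adjusted p = 0.855).

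Peroxisomal beta-oxidation shortens very long chain fatty acids and the side chains of ascaroside pheromones. Of its 28 genes, 2 were higher and 2 lower without overlap, against 4.65% and 4.28% of all genes tested. pmp-1 (C44B7.8; II, 6880701 to 6883754), of the peroxisomal ABC transporters, was at 27.1, 33.4 and 30.2 CPM in N2 and 55.8, 55.9 and 39.9 CPM in mbl-1 (log2 0.75 ± 0.176 SE, DESeq2 adjusted p = 0.0630). ech-9 was at 0.273, 0.905 and 5.92 CPM in N2 and 90.1, 26.3 and 7.72 CPM in mbl-1, so that the span within the mutant group was wider than the gap between the groups (DESeq2 adjusted p = 0.160). acox-1.2 (F08A8.2; I, 12942280 to 12946585), an acyl-CoA oxidase gene, was lower, at 19.6, 23.5 and 7.09 CPM in N2 and 4.55, 5.01 and 5.48 CPM in mbl-1 (log2 -1.72 ± 0.437 SE, DESeq2 adjusted p = 0.0186), and acox-1.4 was at 34.5, 34.8 and 19.7 and 5.50, 19.6 and 19.04 CPM. Among 22 lipase and lipid droplet genes, 3 were lower and 1 higher without overlap, and DESeq2 called dgat-2 (F59A1.10; V, 17660304 to 17661811), a diacylglycerol acyltransferase gene that makes triglyceride, at 22.7, 23.7 and 8.85 CPM in N2 and 7.79, 4.97 and 6.60 CPM in mbl-1 (DESeq2 adjusted p = 0.0451). The triglyceride lipase gene atgl-1 was the 1 higher gene, at 76.9, 69.3 and 81.7 CPM in N2 and 86.4, 98.8 and 97.3 CPM in mbl-1, and was not called. In acox-1.2 and dgat-2 the third N2 library was the nearest to the mutant libraries.

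In the intestinal immunity list of C-type lectin, lysozyme and saposin-like genes, 11 of 135 were higher and 9 lower without overlap (background 4.65% and 4.28%). The median log2 difference was 0.38. DESeq2 called lys-10, clec-11, spp-21 and clec-70 higher and clec-1 and dod-21 lower (background 0.429% and 0.565%). The 4 higher genes were low in N2, at most 1.39 CPM, and clec-70 was the highest of them in mbl-1, at 7.86, 3.62 and 2.44 CPM against 0.382, 1.13 and 1.39 CPM in N2 (DESeq2 adjusted p = 0.0307). clec-1 (F25B4.9; V, 5700010 to 5701082), a C-type lectin gene, was at 119.9, 129.6 and 101 CPM in N2 and 67.9, 38.4 and 31.4 CPM in mbl-1 (log2 -1.33 ± 0.307 SE, DESeq2 adjusted p = 0.0128). The cathepsin B-like protease gene cpr-1 (C52E4.1; V, 11975515 to 11976759) was among the lysosomal proteases without overlap, at 29.7, 79.2 and 427 CPM in N2 and 1812, 1113 and 495 CPM in mbl-1 (log2 2.67 ± 1.03 SE, DESeq2 adjusted p = 0.124). In cpr-1 the third libraries of the groups were close together and the first far apart. The aspartyl protease genes asp-17 and asp-14 were the other 2 of 20, with asp-17 higher at 4.76, 3.75 and 2.24 CPM against 0.409, 1.199 and 1.35 CPM in N2 (DESeq2 adjusted p = 0.0437) and asp-14 lower at 76.7, 82.9 and 52.5 CPM against 109.6, 129 and 193 CPM (DESeq2 adjusted p = 0.0677). Intestinal markers moved with the main axis, as given above, and their part was not tested. In an edgeR fit that took the oocyte list as covariate, the median of the immunity list was 0.11 and 5 genes were called higher and 2 lower. Over all 13286 genes that fit called 137 higher and 98 lower. Of 23 genes of the intracellular pathogen response 2 were higher without overlap, and pals-37 was called, at 0.0818, 0.0734 and 0.157 CPM in N2 and 1.87, 0.629 and 0.448 CPM in mbl-1 (DESeq2 adjusted p = 0.0156).

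Among 28 genes under the insulin-regulated transcription factor DAF-16, 1 was higher and 1 lower without overlap, a smaller share each way than over all genes tested (4.65% and 4.28%). ins-7 (ZK1251.2; IV, 9682011 to 9682928), an insulin-like ligand that DAF-16 represses, was at 0.764, 0.783 and 1.35 CPM in N2 and 6.47, 4.41 and 2.36 CPM in mbl-1 (log2 2.203 ± 0.476 SE, DESeq2 adjusted p = 0.00163). sod-3 (C08A9.1; X, 17092718 to 17094223), a mitochondrial superoxide dismutase gene that DAF-16 activates, was at 1.47, 1.81 and 1.23 CPM in N2 and 0.450, 0.495 and 0.0996 CPM in mbl-1 (log2 -2.09 ± 0.564 SE, DESeq2 adjusted p = 0.0326). The yolk protein genes were abundant in all 6 libraries: vit-2 was at 40432, 37732 and 61085 CPM in N2 and 65231, 56375 and 41954 CPM in mbl-1, overlapping, while vit-1 at 8089.9, 7457 and 6278 against 1466, 4405 and 5476 CPM and vit-3 at 10573, 9729 and 11564 against 7945, 9681 and 8411 CPM were lower without overlap and not called (DESeq2 adjusted p = 0.576 and 0.617).

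Few genes of the germline lists separated by genotype. The shares over all genes tested were 4.65% higher and 4.28% lower without overlap, which in lists of this size is also few genes. The oocyte and eggshell lists moreover follow the main axis, on which the third libraries stood on the side of the other genotype. None of 25 oocyte, 14 eggshell or 29 meiotic genes was without overlap, with median log2 differences of -0.21, -0.25 and -0.11, and of 25 germline RNA-binding genes 1 was, fbf-2, at 28.2, 29.4 and 29.7 CPM in N2 and 26.03, 27.4 and 23.5 CPM in mbl-1. Of 16 genes of the gonadal sheath and spermatheca, 3 were higher and 2 lower without overlap, against 4.65% and 4.28% of all genes tested. The median log2 difference was 0.07. The lower genes were those of the sheath gap junctions, inx-8 at 105, 110.3 and 97.5 CPM in N2 and 42.9, 69.8 and 89.01 CPM in mbl-1 and inx-9 at 22.9, 21.2 and 24.3 and 13.998, 19.6 and 20.4 CPM. The higher genes were the troponin I gene tni-1, the small GTPase gene rho-1 and sad-1. DESeq2 called none of the 5 (adjusted p = 0.559 for inx-8 and 0.787 for inx-9). Of 10 major sperm protein genes, 5 were higher without overlap (background 4.65%), all at or under 1.03 CPM in every library, and their near-identical copies share reads.

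Among 31 splicing regulators 2 were without overlap: mbl-1 itself, given above, and etr-1, of the CELF family of RNA-binding proteins, higher at 67.2, 63.7 and 69.99 CPM in N2 and 78.0, 81.3 and 84.5 CPM in mbl-1 (log2 0.29 ± 0.112 SE, DESeq2 adjusted p = 0.548). Of 38 genes of nonsense-mediated decay and RNA interference smg-5 was the 1 without overlap, lower at 34.5, 33.2 and 32.9 CPM in N2 and 22.7, 28.98 and 31.7 CPM in mbl-1, and of 33 heat shock and chaperone genes 1 copy of hsp-16.1 was higher without overlap. None of 80 cytosolic ribosomal protein genes was without overlap, with a median log2 difference of 0.04. Over all genes tested, 4.65% were higher and 4.28% lower without overlap.

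The libraries labelled L4, also 3 against 3, are a comparison of the same genotypes in other samples. They held adult yolk transcripts, with vit-2 at 27668, 34775 and 30779.9 CPM in N2 and 32846, 31915 and 31758 CPM in mbl-1, and are therefore not read as larvae. There edgeR called 29.7% of the 12907 genes tested in both fits higher in mbl-1 and 22.1% lower. The lists that follow the main axis of the 2-day adults differed there too. Called higher were 74 of 88 neuropeptide genes (0 lower) and 36 of 47 body wall muscle genes (0 lower). Of 131 intestinal immunity genes 85 were called higher and 10 lower. Called lower were 19 of 25 oocyte genes (0 higher) and 12 of 14 eggshell genes (1 higher). How much of the sharing between labels described next goes with oocyte transcripts was not tested. Of the 1332 genes called at least 2-fold higher there, 219 (16.44%) were higher without overlap in 2-day adults, against 4.48% of all 12907 genes, 5 were lower without overlap, and 1257 had the same sign. Of the 231 called at least 2-fold lower, 36 (15.58%) were lower without overlap, against 4.32% of all, 1 was higher without overlap, and 174 had the same sign. Read the other way, of the 53 genes that DESeq2 called higher in 2-day adults and that were tested in both fits, 51 (96.2%) were called higher in the libraries labelled L4 and 0 lower. Of the 74 called lower, 29 (39.2%) were called lower there, 7 higher and 38 neither.

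The genes named above fall on both sides of that division. skr-12 was at 9.17, 9.14 and 8.38 CPM in N2 and 1.5002, 1.57 and 1.05 CPM in mbl-1 in the libraries labelled L4 (log2 -2.69, edgeR adjusted p = 6.80e-08). catp-3 was at 55.8, 53.5 and 39.5 CPM and 12.8, 9.48 and 9.91 CPM (log2 -2.21, edgeR adjusted p = 5.17e-08) and nep-8 at 0.372, 0.938 and 0.546 CPM and 8.42, 9.22 and 10.8 CPM (log2 3.94, edgeR adjusted p = 3.06e-08). These 3 differed in the same direction at both labels. mec-17 was lower in both (log2 -1.18, edgeR adjusted p = 6.62e-04, in the libraries labelled L4), whereas mec-12 was not called there (log2 -0.28, edgeR adjusted p = 0.255). epic-1, dgat-2 and acox-1.2 had log2 differences of 0.14, 0.34 and -0.59 in the libraries labelled L4, with edgeR adjusted p of 0.329, 0.0328 and 0.00142. K12B6.11, chosen after its values were seen, was opposite: in 2-day adults it was at 2.46, 2.32 and 1.57 CPM in N2 and 0.379, 0.427 and 0.324 CPM in mbl-1 (DESeq2 adjusted p = 3.05e-07), and in the libraries labelled L4 at 1.86, 1.88 and 1.86 and 3.75, 4.41 and 5.29 CPM (log2 1.27, edgeR adjusted p = 1.10e-04). The difference between the labels was not tested for any gene.

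**Figure D5:**
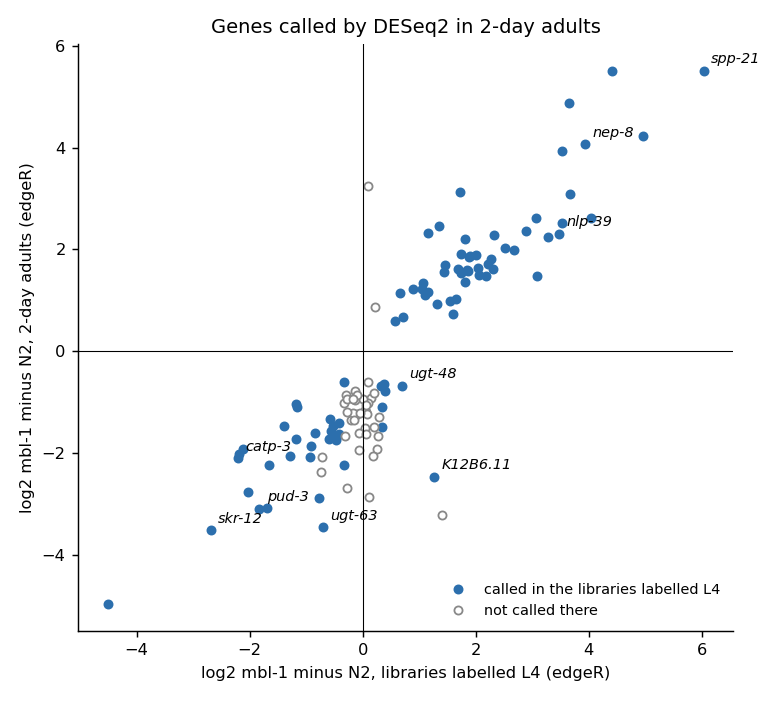
Log2 difference of mbl-1 minus N2 in 2-day adults against that in the libraries labelled L4, both from edgeR, for the 127 genes that DESeq2 called in 2-day adults and that were tested in both fits. Filled points were called in the libraries labelled L4. Genes higher in 2-day adults lie to the right of 0, 51 of 53 of them filled, and the genes lower in 2-day adults include 38 open points around 0 on the horizontal axis.

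The number of genes called depended on the libraries in the fit. With the third library of each group left out, 2 against 2, edgeR called 2957 of 13616 genes higher (21.7%) and 1459 lower (10.7%). In that fit 69 of 90 neuropeptide genes, 27 of 47 body wall muscle genes and 74 of 135 intestinal immunity genes were higher, while 20 genes of the oocyte list (of 25) and 12 of the eggshell list (of 14) were lower. The third libraries were left out for their place on the main axis, which these lists follow. These counts therefore restate that placement and are no further evidence of a difference between the genotypes. cpt-3 (log2 5.08 ± 0.712 SE, edgeR adjusted p = 0.00517), cpt-4 (log2 4.05 ± 0.700 SE, edgeR adjusted p = 0.00917) and cpt-1 (log2 0.84 ± 0.221 SE, edgeR adjusted p = 0.0301) were called higher and cpt-6 lower (log2 -0.88 ± 0.260 SE, edgeR adjusted p = 0.0410). unc-54 was higher by 2.64 and myo-3 by 1.82 on the log2 scale (edgeR adjusted p = 0.00268 and 0.00282), and faah-2, a fatty acid amide hydrolase gene, 2.46 (edgeR adjusted p = 0.00250), although in the third libraries it was higher in N2 (94.5 CPM) than in mbl-1 (68.9 CPM). Under the same rule oac-6 and nhr-19 were called higher and eppl-1 lower (log2 2.70, 3.52 and -1.58, edgeR adjusted p = 0.00250, 0.00250 and 0.00268), and in all 3 genes the third libraries were reversed. The 4 libraries of that fit also differed in oocyte markers without overlap between the genotypes, 3415 and 2745 CPM in N2 against 1024 and 1787 CPM in mbl-1, so genotype and oocyte share cannot be told apart in them. With the oocyte list as a covariate and all 6 libraries, edgeR called 137 genes higher and 98 lower. Among those named here, skr-12 had an adjusted p of 0.00207 and cpt-3 one of 0.0223 in that fit, and unc-54 one of 0.259.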

How the data were processed

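Total RNA of whole animals was sequenced in 3 libraries per group. The authors deposited a table of raw read counts per gene for each pair of groups, whole numbers that had not been scaled. The tables also give log2 fold changes and p-values computed by the authors, of which only the numbers of genes under an adjusted p-value of 0.05 are cited. Per the submitters' processing notes, HISAT2, DESeq2 and WBcel235 were used. No source used here names their versions, the tool that counted reads, the annotation it used or its strand setting. Rows without a gene name (91 loci, with 0.0201% to 0.0264% of a library's reads) were not used. Symbols came from Ensembl release 115 (21276 of 21570 identifiers matched, 4452 with the same start and end), and coordinates from the deposited tables.

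The 6 libraries were compared by the quasi-likelihood F test of edgeR 4.0.16 (R 4.3.3), with TMM scaling, the filterByExpr filter, robust dispersions and Benjamini-Hochberg adjustment over the 13286 genes tested. Standard errors are the absolute log2 difference over the square root of F. DESeq2 1.42.0, limma 3.58.1 voom with sample weights, and the other settings in the closing section were alternatives. Levels are CPM on 1 TMM scale over the 12 N2 and mbl-1 libraries. The edgeR script was tested on simulated data. Libraries of a group differed by more than sampling noise (median chi-square per gene 3.62 to 45.2, noise 0.455). Precision follows from the depth of 34276256 to 47903768 reads: before TMM scaling, 1 CPM is at least 34 reads. Counting error is thus small beside the spread between libraries except under about 1 CPM.

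The comparison, the 36 gene lists and the rule for naming genes were chosen with earlier results of these data known. Named genes are mbl-1, unc-54, myo-3 and the cpt genes; the 12 higher and 12 lower protein-coding genes with the smallest edgeR p among those that have a name, reach 5 CPM in the group with more and do not overlap; the 5 largest DESeq2 differences each way under the same limits; up to 2 members of each list each way; and up to 5 each way from the fit without the third library of each group. Members of lists that are named only in a count, and genes said to be chosen after their values were seen, fall outside the rule.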

Additional observations from a re-analysis of the deposited data

Results flagged for a closer look

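In 6 of the 130 genes described with values, every mbl-1 library lay below every N2 library in 2-day adults and above every N2 library among those labelled L4. The share of all genes tested with this pattern was not counted. K12B6.11 had a log2 difference of -2.47 in 2-day adults and 1.27 in the libraries labelled L4. The glucuronosyltransferase-family gene ugt-48 was at -0.68 and 0.70. The degenerin-like channel gene del-6 was at -0.69 and 0.32, and the neuropeptide gene nlp-26 at -0.55 and 0.57. C52D10.1 was at -1.92 and 0.25, and fbf-2, a germline RNA-binding gene, at -0.17 and 0.27. DESeq2 did not call nlp-26 or fbf-2 in 2-day adults, and edgeR did not call C52D10.1 in the libraries labelled L4 (adjusted p = 0.0597). The difference between stages was not tested in any of the 6.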

How the results depend on the processing

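edgeR called 0 genes higher and 0 lower with DESeq2 size factors, with no filter, with a filter of 1 CPM, without robust estimation, in the fit with the replicate block, and without each of the 6 libraries in turn (0 to 0 in both directions). Genes at an unadjusted p under 0.05 numbered 322 without N2 replicate 2 and 2136 without N2 replicate 3, against 695 with all 6 libraries. The other settings gave calls, higher and lower in mbl-1: DESeq2 57 and 75, DESeq2 on all genes with a read 45 and 62 (chosen after seeing the data), the fit of 12 libraries 23 and 56, the oocyte covariate 137 and 98, the fit without the third library of each group 2957 and 1459, and limma voom with sample weights 3862 and 2870. The sample weights ran from 0.2494 for mbl-1 replicate 3 and 0.2829 for N2 replicate 3 to 5.893 for mbl-1 replicate 2. DESeq2 without 1 library, also chosen after seeing the data, gave 17 and 31 (N2 replicate 1), 10 and 22 (N2 replicate 2), 1008 and 172 (N2 replicate 3), 12 and 47 (mbl-1 replicate 1), 14 and 36 (mbl-1 replicate 2) and 192 and 88 (mbl-1 replicate 3). The cause of these differences was not tested.

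The log2 differences of the 130 genes described with values kept their direction in all but 8 of 2065 fits, and in 395 fits a gene passed the threshold that it misses in edgeR with all 6 libraries. The exceptions were cpt-2 (0.03; -0.06 to 0.09 without 1 library, -0.02 with the oocyte covariate) and mec-2 (-0.07; -0.40 to 0.42 without 1 library, 0.63 without the third library of each group, 0.04 in the fit with the replicate block, 0.19 with sample weights). Many of the genes were named for a small p or for groups that do not overlap. That choice favours a kept direction, which is therefore no further evidence. The libraries labelled L4 are not among these fits. Leaving out 1 library moved the edgeR fold of 17 of the 68 described genes that DESeq2 called by more than 1.5 times. N2 replicate 3 moved 8 of them, mbl-1 replicates 1 and 3 moved 5 each, and N2 replicate 2 and mbl-1 replicate 2 moved 1 each. spp-21 (log2 5.51) ranged from 4.09 without mbl-1 replicate 1 to 9.56 without N2 replicate 3, and cyp-13A7 (3.14) from 1.77 to 4.44 without the same libraries. Of 576 list medians under another setting, 48 moved by more than the spread between replicates. Same-numbered libraries did not deviate together (correlations of -0.62, -0.10 and -0.73), so the numbers were not used to pair them, and the replicate block changed no call. With looser read limits of 5 and 20 the label check rested on 17 genes near 0 in N2 and 2 near 0 in mbl-1. At 4-fold in the libraries labelled L4, 57 genes higher there were higher without overlap in 2-day adults and 8 lower there were lower. The depth limits the genes under about 1 CPM, where a library holds few reads.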

Other observations

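Among genes chosen after their values were seen, pxn-1, which encodes the matrix enzyme peroxidasin, was at 11.7, 12.8 and 14.2 CPM in N2 and 7.63, 7.15 and 7.54 CPM in mbl-1 (DESeq2 adjusted p = 0.00101), and gon-1, a secreted metalloprotease gene of the ADAMTS family, was at 15.7, 16.9 and 8.25 and 5.73, 4.83 and 5.13 CPM (DESeq2 adjusted p = 0.00704). gon-1 shares exon sequence with spe-29. In the metabolism of methionine and tryptophan, sams-1, an S-adenosylmethionine synthetase gene, was at 191, 181 and 76.5 CPM in N2 and 41.4, 59.7 and 56.6 CPM in mbl-1 (DESeq2 adjusted p = 0.0188), and kynu-1, a kynureninase gene, at 76.3, 90.9 and 61.2 and 28.5, 43.3 and 40.1 CPM (DESeq2 adjusted p = 0.0143). In sams-1 the third N2 library was much nearer to the mutant libraries than the other N2 libraries were. The ammonium transporter gene amt-1 was at 2.29, 1.49 and 1.61 CPM in N2 and 0.237, 0.270 and 0.274 CPM in mbl-1 (DESeq2 adjusted p = 1.84e-07), low but narrow in both groups.

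Chromosomes IV and V held 24.2% and 31.1% of the 132 genes that DESeq2 called, against 16.3% and 19.3% of the genes tested. Of the 132, 19 pairs of consecutive genes lay within 20 kb of each other, and 16 of these pairs differed in the same direction. On chromosome IV, skr-12, C52D10.3 and C52D10.1 lie from 17167258 to 17189806 and were all lower in mbl-1: C52D10.3 was at 23.3, 28.9 and 14.8 CPM in N2 and 2.58, 3.80 and 9.48 CPM in mbl-1, and C52D10.1 at 33.6, 40.99 and 23.8 and 4.41, 6.36 and 14.96 CPM. In the libraries labelled L4, skr-12 was lower (log2 -2.69) and C52D10.3 and C52D10.1 were not called (log2 0.18 and 0.25, edgeR adjusted p = 0.207 and 0.0597). F01D5.1, F01D5.2 and F01D5.3 on chromosome II, from 13996954 to 14000065, and ZK228.3 and ZK228.4 on chromosome V, from 18458236 to 18465320, were also lower as groups. On chromosome I, C54C8.12, clec-11 and nlp-39, from 12456918 to 12462097, were higher together: C54C8.12 was at 0.873, 1.27 and 3.21 CPM in N2 and 11.4, 11.98 and 7.39 CPM in mbl-1 (DESeq2 adjusted p = 3.53e-04). On chromosome X, spp-21 and T25C12.3 are 0.601 kb apart and differed in opposite directions, T25C12.3 from 388, 385 and 481 CPM in N2 to 174, 71.0 and 61.2 CPM in mbl-1 (DESeq2 adjusted p = 0.00101). Neighbours of similar sequence can share reads, and no test of the number of neighbours was made.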
